A study of Mus musculus with 8 samples.

Results

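Smooth muscle, pericyte and contractile genes were followed in the epididymal white adipose tissue, or gonadal fat, of mice labelled as Rev-erb alpha knockouts and of wild-type mice. The set was a list of 41 genes known from smooth muscle cells and from pericytes, the cells that wrap arteries and capillaries. It and the other lists below were chosen with earlier results of these data in view. The shares of a list that passed are therefore descriptions and no independent test. A gene was measured where the platform annotation gave a row of the array exactly its symbol and no other. This held for 40 of the 41 genes, out of 19310 genes measured in all, and Ednra, which encodes an endothelin receptor, had no such row. Ppp1r12b had 7 rows, Tns1 had 6 and each of the others had 1, and a gene was read on its brightest row, the one with the highest mean over the 8 arrays.

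The groups were 4 arrays labelled Rev-erb alpha KO and 4 arrays labelled WT, all from C57BL/6 males 12 to 15 weeks old on a standard diet. Rev-erb alpha, encoded by Nr1d1, is a nuclear receptor of the circadian clock that represses transcription. Tissue was taken at Zeitgeber time 10, in hours after lights on, in a cycle of 12 h light and 12 h dark. The labels say neither in which cells the gene was deleted, nor how the allele was made, nor whether every array had its own mouse. The p-values therefore reflect only how far these samples spread, which may be technical.

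The row of Nr1d1 itself read 9.56, 9.28, 8.90 and 8.80 log2 in the knockout-labelled arrays, against 9.47, 9.11, 9.18 and 9.83 in the WT arrays. The groups overlapped, with a log2 fold change of −0.26 (SE 0.19, limma adjusted p = 0.479). The stretch of Nr1d1 covered by this row is not known here, nor is the deleted stretch, so the row leaves the labels unchecked and the group is named after its label, as knockout-labelled. Over all 20748 tested rows, 1536 passed the test, 791 higher and 745 lower in the knockout-labelled arrays, and with each array centred on its median these were 955 and 574. Correlations between arrays, across rows, were 0.994 to 0.997 within the knockout-labelled group, 0.994 to 0.996 within the WT group and 0.989 to 0.994 between the groups.

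Smooth muscle contracts when calcium activates myosin light chain kinase, which lets smooth muscle myosin slide along filaments of smooth muscle actin. Calponin, caldesmon, tropomyosin and transgelin bind those filaments, and myosin phosphatase with its inhibitors sets how long the contraction lasts. Transcription of many of these genes is driven by serum response factor (SRF) and its cofactor myocardin. Pericytes share part of this programme and are usually recognised by Rgs5, Cspg4, Notch3 and the potassium channel pair Kcnj8 and Abcc9. In fat, such cells lie on the vessels that run between the adipocytes, and some of the listed genes are also transcribed in fibroblasts, endothelial cells and adipocytes.

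The set did not move as a block. Of the 40 measured members, 8 rose and 1 fell in the knockout-labelled tissue, and 31 did not pass the test (limma, adjusted p under 0.05). That is 22.5% of the members, against 7.40% of all tested rows, of which 3.81% were higher and 3.59% lower. These shares are not matched for brightness. Of the 40 members, 5 lay in the dimmest 33.3% of tested rows, which are 6916 of the 20748. With those rows left out, 1879 rows passed instead of 1536, with 6 contractile genes and 1 pericyte gene. Among the brighter rows the share that passed was therefore above 7.40%. The 7.40% beside the lists below is not matched for brightness either. How far brightness takes part in the difference was not tested. The median log2 fold change over the members was 0.07, and over all tested rows it was −0.01. The groups did not overlap in 13 members, 11 with every knockout-labelled array above every WT array and 2 below, which is 32.5% of the members against 15.3% of all tested rows. In bulk tissue, fewer cells of a type and less RNA per cell cannot be told apart.

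**Figure D1:**
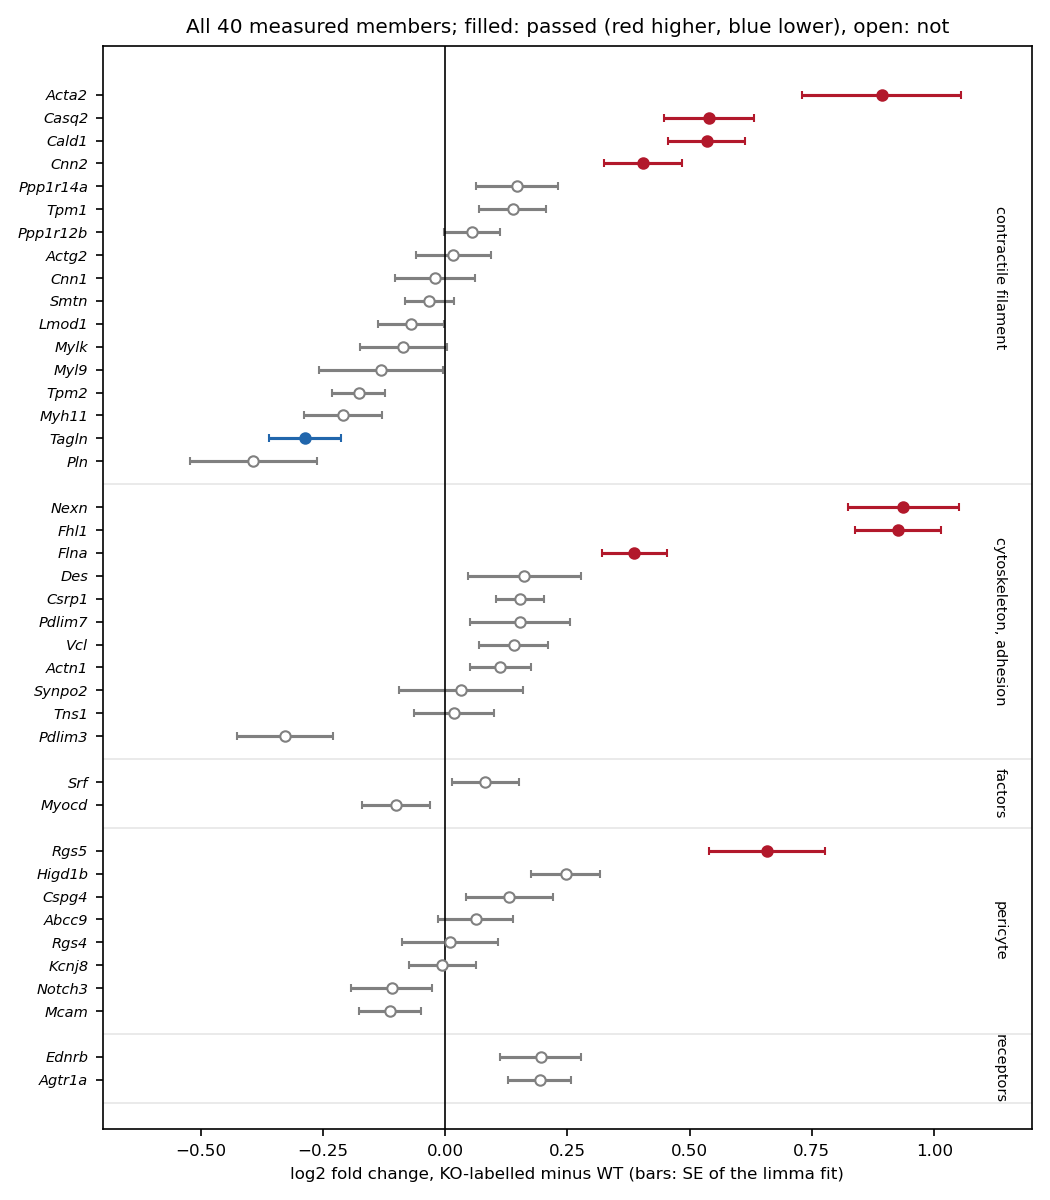
The log2 fold change of each of the 40 measured members, knockout-labelled minus WT, is plotted on the horizontal axis with its standard error, grouped by role. Filled points passed the test, with Nexn, Fhl1 and Acta2 farthest to the right at 0.89 to 0.94 and Tagln the only filled point left of 0.

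Contractile genes came out on both sides of 0. Of 30 measured, 7 rose (Acta2, Casq2, Cald1, Cnn2, Nexn, Fhl1 and Flna), 1 fell (Tagln) and 22 did not pass, with a median log2 fold change of 0.07. That is 26.7% of the contractile genes, against 7.40% of all tested rows. Among the 17 genes of the contractile filament and its regulators, 4 rose and 1 fell (29.4%), and the log2 fold changes split into 8 above and 9 below 0, with a median of −0.02. Among the 11 genes of the cytoskeleton, adhesion sites and LIM proteins, 3 rose and none fell (27.3%), and 10 of 11 log2 fold changes lay above 0, with a median of 0.15.

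Acta2 encodes smooth muscle actin, the filament protein that most often marks smooth muscle cells, activated fibroblasts and part of the pericytes. It read 11.23, 10.33, 10.53 and 10.81 log2 in the knockout-labelled arrays, against 9.96, 9.93, 9.76 and 9.68 in the WT arrays. All knockout-labelled arrays lay above all WT arrays, array 1 the highest of them and array 2 the lowest. Acta2 rose 1.86-fold (log2 fold change 0.89, SE 0.16, limma adjusted p = 0.00911). Its spread was wider in the knockout-labelled group (SD 0.39, n = 4) than in the WT group (SD 0.14, n = 4).

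The other muscle actins were read beside it, since actin genes are very similar in sequence. Actg2, the smooth muscle gamma actin of gut and bladder, read 5.19, 5.05, 5.19 and 5.18 log2 in the knockout-labelled arrays and 4.97, 5.11, 5.13 and 5.33 in the WT arrays. These groups overlapped (log2 fold change 0.02, SE 0.08, limma adjusted p = 0.929). The Actg2 row was rather dim, at percentile 35.9 of the tested rows, and no detection call was at hand for it. Acta1, the skeletal muscle actin gene, is no member and was chosen after its values were seen. It read 8.02, 6.86, 6.62 and 7.45 log2 in the knockout-labelled arrays and 6.37, 6.27, 6.60 and 6.63 in the WT arrays. Its groups overlapped and it did not pass (log2 fold change 0.77, SE 0.25, limma adjusted p = 0.0971), with arrays 1 and 4 the highest of the knockout-labelled group for Acta1 as for Acta2. Acta1 passed when knockout-labelled array 3 was left out (0.97, adjusted p = 0.0376). Whether the rows of Acta1 and Acta2 share signal was not tested.

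**Figure D2:**
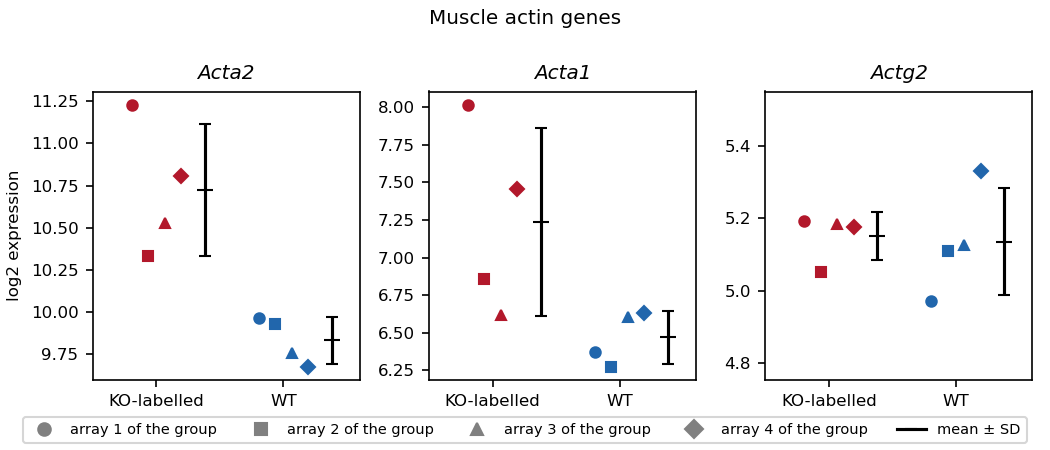
Log2 expression of 3 muscle actin genes is plotted for each array, the knockout-labelled group left of the WT group, with a symbol for the array's number and the mean ± SD in black. Arrays 1 and 4 are the highest knockout-labelled points for Acta2 and Acta1, and the Actg2 groups overlap.

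Of the genes whose proteins bind the actin filament, those of caldesmon and of the calponin of non-muscle and immature muscle cells were higher. Cald1, the caldesmon gene, read 8.65, 8.72, 8.89 and 8.81 log2 in the knockout-labelled arrays, against 8.42, 8.26, 8.12 and 8.14 in the WT arrays. The groups did not overlap, and Cald1 rose 1.45-fold (log2 fold change 0.53, SE 0.08, limma adjusted p = 0.0032). Cnn2 encodes calponin 2, which is found in smooth muscle, fibroblasts and blood cells. It read 8.04, 7.88, 7.84 and 8.22 log2 in the knockout-labelled arrays, against 7.58, 7.62, 7.58 and 7.58 in the WT arrays. The WT arrays lay almost level, all knockout-labelled arrays stood above them, and Cnn2 rose 1.32-fold (log2 fold change 0.41, SE 0.08, limma adjusted p = 0.0129).

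Cnn1, whose product calponin 1 is specific to differentiated smooth muscle, showed no such difference. It read 5.28, 5.45, 5.50 and 5.30 log2 in the knockout-labelled arrays and 5.42, 5.57, 5.22 and 5.40 in the WT arrays. The range of the knockout-labelled arrays lay inside that of the WT arrays (log2 fold change −0.02, SE 0.08, limma adjusted p = 0.917).

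Tagln was the member that fell. It encodes transgelin, also called SM22 alpha, an actin-binding protein and an early marker of smooth muscle. It read 6.68, 6.35, 6.62 and 6.64 log2 in the knockout-labelled arrays, against 6.83, 6.91, 6.84 and 6.85 in the WT arrays. All knockout-labelled arrays lay below all WT arrays, array 2 the lowest, and Tagln fell by 0.29 on the log2 scale (SE 0.07, limma adjusted p = 0.0415). The call was narrow: it was lost when any WT array or knockout-labelled array 3 or 4 was left out (adjusted p 0.0681 to 0.102), and median centring also ended it (0.0574).

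Myosin and its regulators did not pass. Myh11, the smooth muscle myosin heavy chain and the most specific marker of mature smooth muscle, read 6.95, 6.95, 7.25 and 6.95 log2 in the knockout-labelled arrays, against 7.25, 7.34, 7.12 and 7.24 in the WT arrays. Arrays 1, 2 and 4 of the knockout-labelled group lay below every WT array, and array 3 lay among the WT arrays. Its log2 fold change of −0.21 (SE 0.08, limma adjusted p = 0.151) did not pass, but Myh11 passed when knockout-labelled array 3 was left out (−0.28, adjusted p = 0.031). For the light chain gene Myl9 the log2 fold change was −0.13 (SE 0.13), for the kinase gene Mylk −0.09 (SE 0.09) and for the phosphatase inhibitor gene Ppp1r14a 0.15 (SE 0.08). The brightest row of Ppp1r12b, a targeting subunit of myosin phosphatase, was at 0.06, and its other 6 rows ran from −0.14 to −0.03, none of which passed.

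Tropomyosin genes lay on opposite sides of 0. Tpm2 read 5.84, 5.80, 5.93 and 5.89 log2 in the knockout-labelled arrays, against 6.02, 5.97, 6.07 and 6.10 in the WT arrays. These groups did not overlap, but the gap between them was 0.04 log2 and Tpm2 did not pass (log2 fold change −0.18, SE 0.05, limma adjusted p = 0.0782). Tpm1 was at 0.14 (SE 0.07, adjusted p = 0.277). Smtn, which encodes smoothelin, was at −0.03, and Lmod1, which encodes an actin filament nucleator of smooth muscle, was at −0.07.

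Of the genes of calcium storage, Casq2 passed and Pln did not. Casq2 encodes calsequestrin 2, which holds calcium in the sarcoplasmic reticulum of heart and smooth muscle. It read 5.13, 4.86, 5.36 and 5.07 log2 in the knockout-labelled arrays, against 4.56, 4.51, 4.58 and 4.61 in the WT arrays. The groups did not overlap, and Casq2 rose 1.45-fold (log2 fold change 0.54, SE 0.09, limma adjusted p = 0.00672). Pln encodes phospholamban, the inhibitor of the calcium pump that fills that store, and its log2 fold change was −0.39 (SE 0.13, adjusted p = 0.101). Both rows lay in the dimmest 33.3% of tested rows, below a mean of 5.00 log2, where no detection call was at hand here.

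Among cytoskeletal members the increases were those of Fhl1, Nexn and Flna. Fhl1, a LIM-domain protein gene of skeletal and smooth muscle and other tissues, read 10.00, 10.24, 10.36 and 10.05 log2 in the knockout-labelled arrays, against 9.31, 9.27, 9.07 and 9.28 in the WT arrays. The gap of 0.68 log2 between the groups was wider than the range within either group. Fhl1 rose 1.90-fold (log2 fold change 0.93, SE 0.09) and had the smallest adjusted p of the 40 members (limma adjusted p = 0.000261).

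Nexn encodes nexilin, an actin-binding protein of muscle Z-discs and of adhesion sites. It read 5.03, 4.99, 5.56 and 5.35 log2 in the knockout-labelled arrays, against 4.25, 4.36, 4.27 and 4.29 in the WT arrays. The WT arrays were tightly grouped, and the knockout-labelled arrays stood at least 0.63 log2 above them. Nexn rose 1.91-fold (log2 fold change 0.94, SE 0.11, limma adjusted p = 0.001), on a row that also belongs to the dimmest 33.3%.

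Flna encodes filamin A, which crosslinks actin filaments and is present in most cells. It read 9.69, 9.68, 9.83 and 9.95 log2 in the knockout-labelled arrays, against 9.42, 9.39, 9.35 and 9.42 in the WT arrays. The groups did not overlap, and Flna rose 1.31-fold (log2 fold change 0.39, SE 0.07, limma adjusted p = 0.00709).

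**Figure D3:**
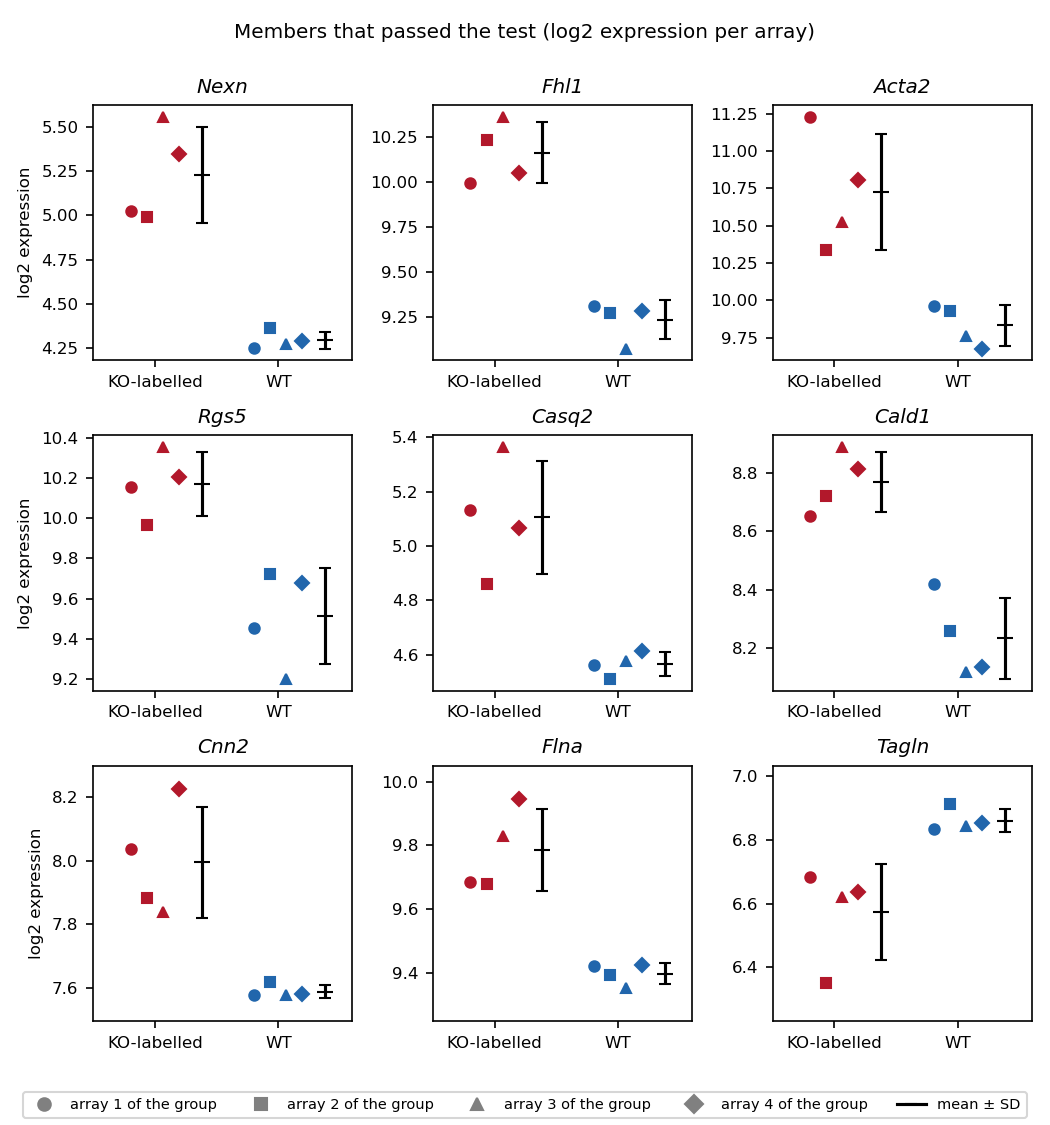
Log2 expression of the 9 members that passed is plotted for each array, the knockout-labelled group left of the WT group, with a symbol for the array's number and the mean ± SD in black. In 8 panels every knockout-labelled point lies above every WT point, and for Tagln every one lies below.

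The other cytoskeletal members did not pass. Des encodes desmin, the intermediate filament of muscle, and read 6.54, 6.23, 6.88 and 6.58 log2 in the knockout-labelled arrays and 6.37, 6.50, 6.39 and 6.32 in the WT arrays. Knockout-labelled array 2 was the lowest of all arrays and array 3 the highest, so the groups overlapped (log2 fold change 0.16, SE 0.11, limma adjusted p = 0.468). Csrp1, a LIM-protein gene of smooth muscle, read 9.64, 9.55, 9.57 and 9.65 log2 in the knockout-labelled arrays, against 9.45, 9.44, 9.43 and 9.49 in the WT arrays. Its groups did not overlap, but the difference was small and did not pass (log2 fold change 0.15, SE 0.05, adjusted p = 0.0912). The adhesion genes Vcl (vinculin) and Actn1 (alpha-actinin 1) were at 0.14 and 0.11, Pdlim7 at 0.15, Synpo2 at 0.03 and Tns1 (tensin 1) at 0.02. The other 5 rows of Tns1 ran from −0.15 to 0.10 and none passed. Pdlim3, the gene of a muscle Z-disc protein, was the member of this group below 0 (−0.33, SE 0.10, adjusted p = 0.0722).

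Neither transcription factor of the contractile programme passed. Srf was at a log2 fold change of 0.08 (SE 0.07, limma adjusted p = 0.552) and Myocd, the myocardin gene, at −0.10 (SE 0.07, adjusted p = 0.451) on a row of the dimmest 33.3%. Among 9 measured genes of SRF cofactors and regulators outside the set, none rose and Csrp2 fell, which is 11.1% against 7.40% of all tested rows. Csrp2 encodes a LIM protein of vascular smooth muscle that acts with SRF, and it read 7.53, 7.57, 7.62 and 7.36 log2 in the knockout-labelled arrays, against 8.18, 7.86, 8.16 and 7.95 in the WT arrays (log2 fold change −0.51, SE 0.09, limma adjusted p = 0.00609). The SRF cofactor genes Mrtfa and Mrtfb were at −0.06 and −0.03, and the median of these 9 genes was −0.06.

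SRF binds a DNA element called the CArG box, and this element was looked for in the start regions of the members. RefSeq windows of the GRCm38.p6 build, from 250 bases before to 50 bases after a gene's start, were at hand for 34 of the 41 genes (38 windows). A full box was the pattern CCWWWWWWGG, where W is A or T, with no other letter allowed, and near matches were not counted in any window. A full CArG box on either strand was found in 5 of the 38 windows, those of Cnn2, Fhl1, Myl9, Vcl and Srf, against 1.63% of all 32851 windows. Of the 7 genes with a window that passed the test, 2 held the element, and of the 26 genes that did not pass, 3 held it. Fhl1 has another window, at its downstream start, without the box. The windows that hold the box, and that of Acta2, are shown 5′ to 3′ on the gene's strand with the full box in capitals. Genes that rose (Cnn2, Fhl1, Acta2) can so be set beside genes that did not pass (Myl9, Vcl, Srf). The Acta2 window held no full box, but it holds the near matches ccctatatgg and ccttgtttgg, each with another letter inside the run of A or T. The absence of capitals there is therefore no absence of CArG-like elements. Near matches are not particular to a gene that rose: the Myl9 window holds ccttgtaagg beside its full box. The windows shown lie at chr10:79988350-79988649 (plus strand) for Cnn2, chrX:56779433-56779732 (plus) for Fhl1, chr19:34255324-34255623 (minus) for Acta2, chr2:156775214-156775513 (plus) for Myl9, chr14:20929148-20929447 (plus) for Vcl and chr17:46556113-46556412 (minus) for Srf.
Cnn2: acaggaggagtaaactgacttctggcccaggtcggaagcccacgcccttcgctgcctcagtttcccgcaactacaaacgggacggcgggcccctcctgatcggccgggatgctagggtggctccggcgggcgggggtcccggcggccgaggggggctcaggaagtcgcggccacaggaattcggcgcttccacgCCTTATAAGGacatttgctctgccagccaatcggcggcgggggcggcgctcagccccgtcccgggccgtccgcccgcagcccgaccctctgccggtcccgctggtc
Fhl1: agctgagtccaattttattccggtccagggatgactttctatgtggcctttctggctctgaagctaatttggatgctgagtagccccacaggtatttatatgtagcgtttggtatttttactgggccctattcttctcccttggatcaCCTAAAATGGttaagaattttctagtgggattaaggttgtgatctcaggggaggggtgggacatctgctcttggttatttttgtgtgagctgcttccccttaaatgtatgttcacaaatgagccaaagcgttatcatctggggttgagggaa
Acta2: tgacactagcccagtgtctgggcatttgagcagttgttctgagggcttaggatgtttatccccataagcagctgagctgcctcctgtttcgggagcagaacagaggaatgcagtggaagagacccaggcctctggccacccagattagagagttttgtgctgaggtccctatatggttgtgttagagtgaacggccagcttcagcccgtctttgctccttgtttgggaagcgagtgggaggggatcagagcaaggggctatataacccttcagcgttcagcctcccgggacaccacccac
Myl9: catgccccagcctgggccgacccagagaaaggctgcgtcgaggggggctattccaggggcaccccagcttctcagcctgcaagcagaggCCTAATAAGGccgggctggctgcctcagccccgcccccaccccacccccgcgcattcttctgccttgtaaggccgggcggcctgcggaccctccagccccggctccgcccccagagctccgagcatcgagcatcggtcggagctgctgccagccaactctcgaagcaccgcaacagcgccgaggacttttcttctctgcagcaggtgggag
Vcl: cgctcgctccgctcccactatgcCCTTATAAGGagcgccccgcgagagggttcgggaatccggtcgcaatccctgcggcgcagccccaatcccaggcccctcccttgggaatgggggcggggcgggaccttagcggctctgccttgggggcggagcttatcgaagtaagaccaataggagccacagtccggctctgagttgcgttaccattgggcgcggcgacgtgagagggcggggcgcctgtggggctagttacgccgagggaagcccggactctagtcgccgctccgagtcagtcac
Srf: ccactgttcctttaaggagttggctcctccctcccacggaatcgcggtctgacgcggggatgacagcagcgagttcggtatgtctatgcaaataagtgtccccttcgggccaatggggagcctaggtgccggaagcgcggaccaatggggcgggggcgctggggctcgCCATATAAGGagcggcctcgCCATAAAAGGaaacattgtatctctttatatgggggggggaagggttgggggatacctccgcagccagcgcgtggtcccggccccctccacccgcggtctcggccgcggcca
The box began 56 bases before the start of Cnn2, 102 before the upstream of the listed starts of Fhl1, 161 before that of Myl9 and 227 before that of Vcl, and Srf held a pair, at 82 and 62 bases. The nuclear receptor half-site AGGTCA, to which Rev-erb alpha binds within a longer element, was in none of the 38 member windows on either strand, against 16.3% of all windows. The E-box CACGTG, the element of the clock activators, was in none of the member windows either, against 7.15% of all windows. A match is a run of letters and not a bound site, and elements outside these windows were not looked for.

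Pericyte genes were described apart. Of 8 measured, Rgs5 rose, none fell and 7 did not pass, with a median log2 fold change of 0.04. That is 12.5% of the pericyte genes, against 7.40% of all tested rows. The median was 0 without WT array 3 and 0.075 without WT array 4. Rgs5, a regulator of G-protein signalling and the most widely used pericyte marker, read 10.16, 9.97, 10.36 and 10.21 log2 in the knockout-labelled arrays, against 9.45, 9.72, 9.20 and 9.68 in the WT arrays. The groups did not overlap, with WT array 3 the lowest of all. Rgs5 rose 1.58-fold (log2 fold change 0.66, SE 0.12, limma adjusted p = 0.00858).

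The other defining markers of pericytes did not pass. Cspg4, the NG2 proteoglycan gene, read 7.18, 7.23, 7.41 and 7.49 log2 in the knockout-labelled arrays and 7.31, 7.08, 7.33 and 7.06 in the WT arrays (log2 fold change 0.13, SE 0.09, limma adjusted p = 0.447). Notch3, the Notch receptor of mural cells, read 6.99, 7.04, 7.32 and 7.01 log2 in the knockout-labelled arrays and 7.27, 7.20, 7.06 and 7.27 in the WT arrays (log2 fold change −0.11, SE 0.08, adjusted p = 0.502). In both genes the groups overlapped. For Notch3, as for Myh11, 3 of the knockout-labelled arrays lay below every WT array and array 3 stood above them.

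The channel genes Kcnj8 and Abcc9, whose products form the vascular potassium channel that closes with ATP, were at −0.01 and 0.06. Mcam, the gene of an adhesion molecule shared by pericytes and endothelium, was at −0.11, and Rgs4, another regulator of G-protein signalling, at 0.01. Higd1b read 3.92, 3.98, 3.88 and 3.93 log2 in the knockout-labelled arrays, against 3.77, 3.52, 3.61 and 3.83 in the WT arrays. These groups did not overlap, but the gap was 0.05 log2 on a row of the dimmest 33.3% and Higd1b did not pass (log2 fold change 0.25, SE 0.07, limma adjusted p = 0.0637). It passed when WT array 4 was left out (adjusted p = 0.0428) and with median centring (0.0444), which brings the pericyte genes that rose to 2.

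**Figure D4:**
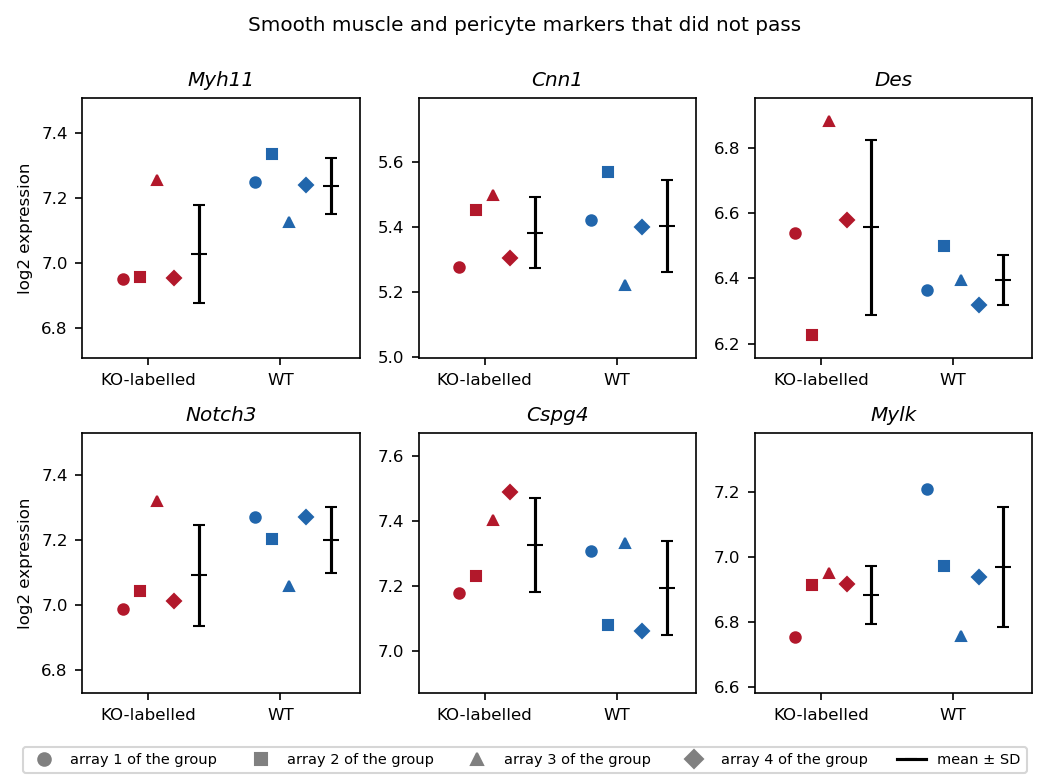
Log2 expression of 6 smooth muscle and pericyte markers that did not pass is plotted for each array, the knockout-labelled group left of the WT group, with a symbol for the array's number and the mean ± SD in black. The groups overlap in every panel, and knockout-labelled array 3 is the highest of its group for Myh11, Cnn1, Des, Notch3 and Mylk.

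The receptors through which vessels answer endothelin and angiotensin did not pass. Of the 2 measured, Agtr1a, the main angiotensin II receptor gene, read 7.82, 7.71, 7.61 and 7.67 log2 in the knockout-labelled arrays, against 7.42, 7.57, 7.45 and 7.60 in the WT arrays. The groups were separated by 0.01 log2 (log2 fold change 0.19, SE 0.06, limma adjusted p = 0.106). Ednrb, an endothelin receptor gene of endothelium and smooth muscle, was at 0.20 (SE 0.08, adjusted p = 0.196).

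On the ligand side of these receptors, 2 genes of the endothelin pathway rose among 9 measured genes of endothelin and angiotensin ligands and enzymes, and none fell, with a median of 0.02. The share that passed was 22.2%, against 7.40% of all tested rows. Edn1, which encodes the precursor of the vasoconstrictor endothelin 1, read 6.71, 6.85, 6.81 and 6.72 log2 in the knockout-labelled arrays, against 5.56, 6.06, 5.69 and 6.21 in the WT arrays. The knockout-labelled arrays lay close together and above every WT array, and Edn1 rose 1.86-fold (log2 fold change 0.89, SE 0.13, limma adjusted p = 0.00259). Ece1, the gene of the enzyme that cuts big endothelin to its active form, read 9.10, 9.00, 9.07 and 9.11 log2 in the knockout-labelled arrays, against 8.59, 8.54, 8.60 and 8.68 in the WT arrays (log2 fold change 0.47, SE 0.05, adjusted p = 0.000709). Agt, the angiotensinogen gene, chosen after its values were seen, was at 0.55 (SE 0.15, adjusted p = 0.0525), and it passed with the dimmest 33.3% of rows left out (0.0387) and without knockout-labelled array 3 (0.0441) or WT array 2 (0.0445). Endothelin 1 comes mainly from endothelial cells, so these values do not describe mural cells alone.

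Pde3a, which is no member, also rose. It encodes a phosphodiesterase of vascular smooth muscle that breaks down cyclic AMP. It read 5.87, 5.85, 6.02 and 5.88 log2 in the knockout-labelled arrays, against 5.63, 5.50, 5.47 and 5.52 in the WT arrays, without overlap (log2 fold change 0.37, SE 0.06, limma adjusted p = 0.00499).

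Of 14 measured genes of mural cell recruitment and Notch signalling, none rose and 2 fell, with a median of 0.04. The share that passed was 14.3%, against 7.40% of all tested rows. Angpt1, the angiopoietin gene that mural cells express and that signals to the endothelial receptor Tek, read 4.92, 5.39, 4.71 and 4.86 log2 in the knockout-labelled arrays, against 5.95, 6.84, 6.58 and 6.82 in the WT arrays (log2 fold change −1.58, SE 0.20, limma adjusted p = 0.00119). Vtn, the vitronectin gene, read 6.54, 6.42, 6.76 and 6.68 log2 in the knockout-labelled arrays, against 6.88, 7.01, 7.14 and 7.51 in the WT arrays (log2 fold change −0.53, SE 0.13, adjusted p = 0.0297). The Vtn call was lost when WT array 3 or knockout-labelled array 1, 2 or 4 was left out (adjusted p 0.0608 to 0.074). Pdgfrb, the receptor by which endothelial cells recruit pericytes, was at 0.28 (SE 0.12, adjusted p = 0.207), and its ligand gene Pdgfb was at 0.02. Angpt2, another angiopoietin gene, had the largest increase of the list but did not pass (0.42, SE 0.12, limma adjusted p = 0.0662).

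**Figure D5:**
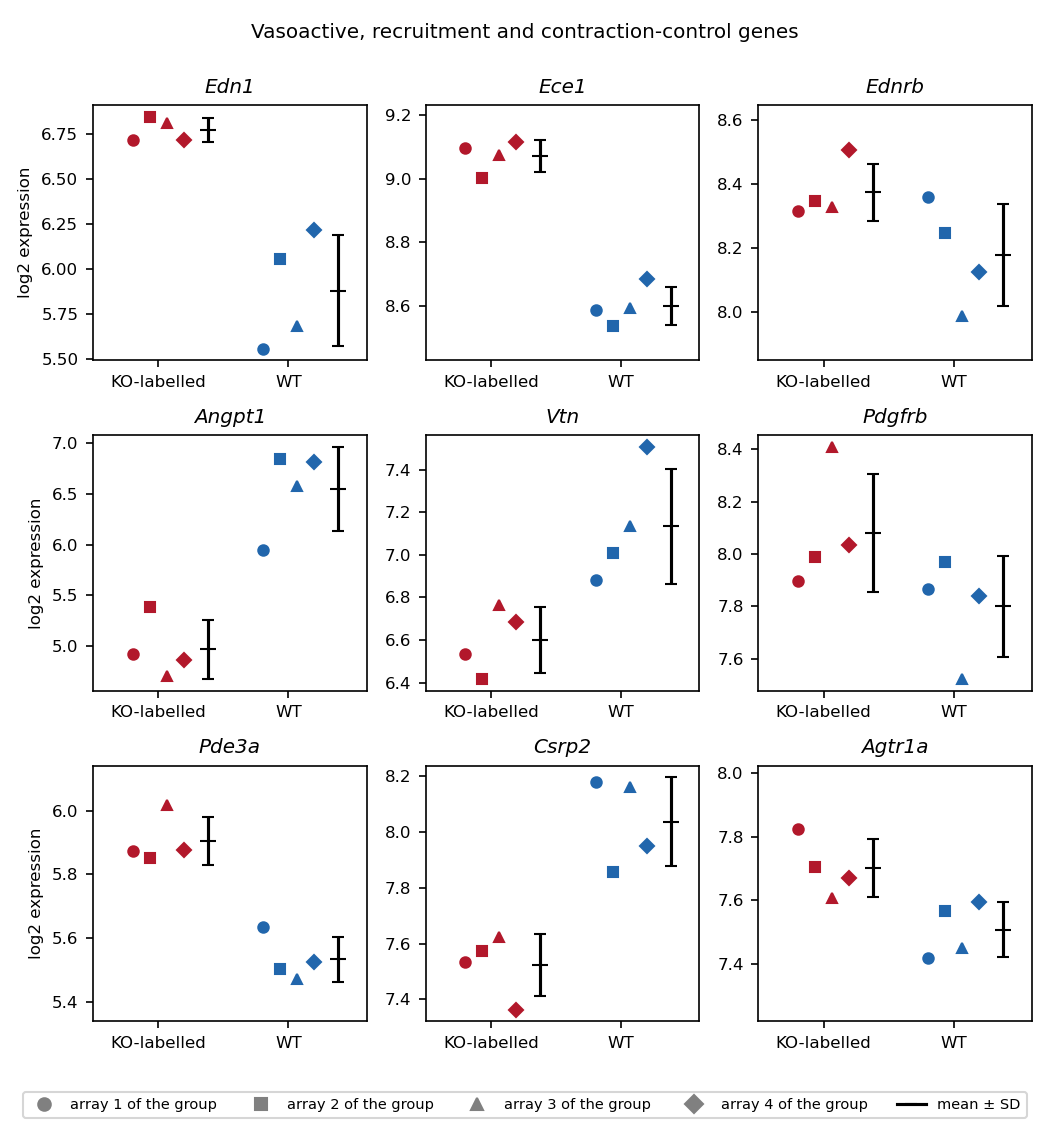
Log2 expression of 9 genes of vasoactive signalling, mural cell recruitment and control of contraction is plotted for each array, the knockout-labelled group left of the WT group, with a symbol for the array's number and the mean ± SD in black. Edn1, Ece1 and Pde3a lie higher and Angpt1, Vtn and Csrp2 lower in the knockout-labelled group without overlap, Agtr1a is separated by 0.01 log2, and the groups overlap for Ednrb and Pdgfrb.

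The level of the lists also varied from array to array within a group. Each gene was set against its own mean over the 8 arrays, and the median of these deviations was taken over a list. For pericyte genes this median was 0.008, −0.017, 0.12 and −0.036 log2 in knockout-labelled arrays 1 to 4, against −0.048, −0.035, −0.137 and 0.09 in WT arrays 1 to 4. For contractile genes it was 0.028, 0.006, 0.106 and 0.044 in the knockout-labelled arrays, against −0.038, −0.012, −0.095 and −0.013 in the WT arrays. Knockout-labelled array 3 was the highest and WT array 3 the lowest of all for both. Fibroblast and progenitor markers gave 0.214 in knockout-labelled array 3 and −0.344 in WT array 3, and endothelial markers 0.186 and −0.049, and WT array 2 was the lowest for endothelial markers (−0.183). Macrophage markers (−0.052) and mesothelial markers (−0.122) were not high in knockout-labelled array 3. In WT array 3, macrophage markers were at −0.365, their lowest value, and mesothelial markers at −0.01. How far the makeup of these samples takes part in the differences between the groups was not tested.

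Markers of other cells of the fat pad were read beside the members, as counts and as the sum of the unlogged values over a list. The shares that passed were 16.7% of endothelial and 40% of fibroblast and progenitor markers, against 7.40% of all tested rows. Of 12 endothelial markers 2 rose (Cldn5, 0.99, and Pecam1, 0.20) and none fell, with a median log2 fold change of 0.14 and sums of 4830 to 5512 in the knockout-labelled arrays and 4219 to 4892 in the WT arrays. Of 10 fibroblast and progenitor markers 4 rose (Col1a1, 0.71, Mfap5, 0.84, Pi16, 0.40, and Col3a1, 0.27) and none fell, with a median of 0.21 and sums of 8521 to 9170 in the knockout-labelled arrays and 7786 to 9044 in the WT arrays. Cald1, Cnn2, Flna and Acta2 are also transcribed by such cells, and the part of these cells in the members' increases was not tested. Of these calls, that of Pecam1 was lost when any array but knockout-labelled array 2 was left out (adjusted p 0.0724 to 0.112), that of Col3a1 when any WT array or knockout-labelled array 3 or 4 was (0.0619 to 0.0884), and that of Pi16 when knockout-labelled array 3 or 4 or WT array 2, 3 or 4 was (0.051 to 0.0997). Of the 10 fibroblast and progenitor markers, 8 log2 fold changes lay above 0 and 2 below. Among those that did not pass, Lum was at 0.37, Pdgfra at 0.14 and Dcn at −0.14.

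Markers of skeletal muscle and epididymal duct, which could be cut along with the fat pad, were read as well. Of 12 skeletal muscle markers none rose and Actn3 fell (−0.43, limma adjusted p = 0.0332), which is 8.33% against 7.40% of all tested rows, with a median of −0.01 and sums of 527 to 676 in the knockout-labelled arrays and 510 to 571 in the WT arrays, the list in which Acta1 stands. The Actn3 call was lost when any array but knockout-labelled array 2 or WT array 1 was left out (adjusted p 0.074 to 0.097). Ckm, the muscle creatine kinase gene, was at −0.05 and the fast myosin gene Myh4 at 0.12. Of 8 markers of the epididymal epithelium none passed and 7 lay in the dimmest 33.3% of rows, with a median of 0.01 and sums of 127 to 139 in the knockout-labelled arrays and 133 to 139 in the WT arrays. Of 11 adipocyte markers Lep (0.75) and Aqp7 (0.39) rose and Cebpa (−0.37) fell, with a median of −0.07 and sums of 42310 to 43760 in the knockout-labelled arrays and 40430 to 43840 in the WT arrays. Of 11 mesothelial markers Msln rose (0.60) and none fell, with a median of −0.19 and sums of 3384 to 3852 in the knockout-labelled arrays and 3482 to 4163 in the WT arrays. Of 10 macrophage markers Cd14 fell (−0.38) and none rose, with a median of 0.11 and sums of 3771 to 4600 in the knockout-labelled arrays and 3023 to 4276 in the WT arrays. The shares that passed were 27.3% of adipocyte, 9.09% of mesothelial and 10% of macrophage markers, against 7.40% of all tested rows. No detection calls were at hand, so no marker can be called absent.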

How the data were processed

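Expression was measured on 8 Affymetrix arrays after whole-transcript labelling, per the labels' protocols, 4 labelled Rev-erb alpha KO and 4 wild type. The deposited values are log2 expression values, a scale read from the values themselves, and per the submitters' processing notes the authors used the tool affy. Its version, the background correction, the normalization, the filters and the genome build are not given in the sources used here. Array medians lay within 5.90 to 5.95 log2, which leaves a change common to most genes out of sight. The number of arrays limits the precision.

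Of 23346 rows, 20748 carried a single symbol in the platform annotation. The fit over these rows used limma (version 3.58.1, under R version 4.3.3), with lmFit and eBayes at default settings, both groups and no filter on dim rows, two-sided p-values and Benjamini-Hochberg adjustment over all 20748 rows. A row passed at an adjusted p under 0.05. The fit was tried on simulated data with planted changes and independent noise in each row. That trial therefore does not cover variation shared between genes. Each gene was read on its brightest row. Older symbols in the lists were matched through the RefSeq gene table.

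The members and all lists were chosen with earlier results of these data known. Values in every array are given for members that passed, members whose groups did not overlap and 8 fixed markers. From each other list, the genes that passed are named. The counts of 1 further list are not reported here. Alternatives were median centring, quantile normalization, a replicate block, array weights, trend and robust eBayes, a fit without the dimmest 33.3% of rows, a fit on all rows, a fit without each array in turn, each gene as the mean of its rows, an adjusted p under 0.10 and a 1.5-fold minimum. Rows with several symbols (1183) or none (1415) were tested only as an alternative.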

Additional observations from a re-analysis of the deposited data

Results flagged for a closer look

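Among 122 groups of 4 arrays looked at, those of the members and the other named genes, 8 held an array far from the others of its group, and chance gives about 1 in 20. In the knockout-labelled group, array 3 was the highest for Myh11 (7.25 log2, the others 6.95), for Notch3 (7.32, the others 6.99 to 7.04) and for Pde3a (6.02, the others 5.85 to 5.88). In the same group, array 4 was the highest for Ednrb (8.51, the others 8.32 to 8.35), array 2 the highest for Actn3 (6.08, the others 5.70 to 5.74) and array 2 the lowest for Actg2 (5.05, the others 5.18 to 5.19). In the WT group, array 2 was the highest for Cnn2 (7.62, the others 7.58) and array 3 the lowest for Fhl1 (9.07, the others 9.27 to 9.31).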

How the results depend on the processing

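Of the 40 measured members, 8 of the 9 that passed also passed under every alternative that kept their row (quantile normalization, median centring, all rows, trend and robust eBayes, array weights, the replicate block, each gene as the mean of its rows, and each array left out), Tagln being the exception. Leaving out the dimmest 33.3% of rows removed 5 members, Nexn, Casq2, Pln, Myocd and Higd1b. In that setting 1879 rows, 6 contractile genes and 1 pericyte gene passed. The contractile genes that passed numbered 7 to 8 with an array left out, 7 with median centring, 11 at an adjusted p under 0.10 and 3 with a 1.5-fold minimum (Acta2, Nexn and Fhl1). The pericyte genes that passed numbered 1 to 2 with an array left out, 2 with median centring and 2 at an adjusted p under 0.10, and no receptor passed in any setting. Over all rows, 913 to 1418 passed with an array left out (972 without WT array 3, 1004 without WT array 4, 913 without knockout-labelled array 4), 2552 at an adjusted p under 0.10 and 326 with a 1.5-fold minimum. Deviations from the group means correlated across genes at −0.067 to 0.134 for arrays of the same replicate number. For arrays of different numbers the correlations were −0.078 to 0.095. No strong pairing was seen, but such correlations cannot exclude a pairing. The replicate block left 1105 rows, 8 contractile genes and 1 pericyte gene, with Pdlim3 gained (adjusted p = 0.0201) and Tagln lost (0.0867), and among the other named genes it lost Pecam1, Col3a1 and Pi16. Quantile normalization lost Pecam1, Col3a1 and Actn3 (adjusted p 0.0738, 0.0523 and 0.0518). The contractile median was 0.04 to 0.13 with an array left out (0.13 without knockout-labelled array 1, 0.04 without WT array 1). The pericyte median was 0 to 0.075 with an array left out, 0.0097 without the dimmest rows, 0.0146 with array weights and 0.0578 with median centring. Log2 fold changes near 0 turned sign: with an array left out they ran from −0.0805 to 0.035 for Cnn1, −0.0731 to 0.0713 for Rgs4, −0.0411 to 0.0522 for Kcnj8, −0.0508 to 0.0622 for Tns1, −0.0631 to 0.1235 for Synpo2 and −0.0379 to 0.0825 for Actg2. With median centring they were 0.0012 for Cnn1 and 0.0163 for Kcnj8, with array weights −2e-04 for Actg2 and −0.008 for Rgs4, and as the mean of its rows −0.0602 for Ppp1r12b. The causes were not tested. The small number of arrays and the lack of detection calls for dim rows limit what can be seen.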
